A study of Mus musculus with 7 samples.

Results

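Plasmacytoid dendritic cells (pDCs) of mouse glioma are described here. They are the 541 cells, 1.89% of the 28644 measured, that the deposited cell annotation names pDCs, and they are set beside 1864 cells named cDC1, 954 named cDC2 and 840 named B cells. They came from 7 mice that carried CT-2A glioma, a mouse glioma line of which 50000 cells were placed in the brain at 8 to 12 weeks of age. The 4 KO mice (Siglece KO) joined the tamoxifen-inducible driver Sall1CreERT2, made on B6;129, with Siglecefl/fl, a floxed Siglece made on B6.129P2. The 3 WT mice had Siglecefl/fl without the driver, so that both groups carried the floxed gene. Tamoxifen was given to both, 2.5 mg per injection into the peritoneum, from day 7 after implantation, each day to day 21 and every other day after that. The driver is active in cells that express Sall1, which in the brain are chiefly microglia, so pDCs are not the cells in which the deletion was aimed for. The tumour-bearing hemisphere was dissociated, frozen and later thawed, and live cells with CD45, CD11b or both were sorted for 5′ single-cell RNA sequencing, 1 library per mouse. The day of harvest of each mouse is not given in the sources used here. Values are unique molecular identifiers (UMIs, which count captured molecules), summed over the pDCs of a mouse and scaled to a common total per mouse (CPM).

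pDCs are dendritic cells that take up nucleic acids of viruses or dying cells and read them in endosomes with the receptors TLR7 and TLR9. Through MyD88 and the transcription factor IRF7 they can then release large amounts of type I interferon, while surface receptors such as Siglec-H and BST2 restrain that output. The factor TCF4 (E2-2) maintains the pDC state, and conventional dendritic cells (cDC1 and cDC2) are the stronger activators of T cells.

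The windows around the starts of 3 genes are shown because the results turn on them. Siglech and Klk1 set pDCs apart from cDC1, the cells named cDC2 and B cells, the classes compared here. Isg15 stands for the interferon response that is described by genotype. Each runs 5′ to 3′ along the gene from 250 bases before to 50 after the start and is taken from RefSeq on GRCm38.p6. Siglech lies at chr7:55767934-55768233 (plus strand), Klk1 at chr7:44225110-44225409 (plus strand) and Isg15 at chr4:156200769-156201068 (minus strand). Capitals mark the E-box CACCTG, or its other strand CAGGTG, in the first 2 windows. E-boxes are the kind of motif that TCF4 reads. In Isg15 they mark a repeat of GAAA with any 2 bases between the copies, the core of the interferon-stimulated response element.
Siglech: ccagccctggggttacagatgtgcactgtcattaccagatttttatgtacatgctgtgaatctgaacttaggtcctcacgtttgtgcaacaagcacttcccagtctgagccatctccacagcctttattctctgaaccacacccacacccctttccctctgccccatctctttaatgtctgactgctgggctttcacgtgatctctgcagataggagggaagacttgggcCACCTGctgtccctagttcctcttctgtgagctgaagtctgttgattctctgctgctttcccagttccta
Klk1: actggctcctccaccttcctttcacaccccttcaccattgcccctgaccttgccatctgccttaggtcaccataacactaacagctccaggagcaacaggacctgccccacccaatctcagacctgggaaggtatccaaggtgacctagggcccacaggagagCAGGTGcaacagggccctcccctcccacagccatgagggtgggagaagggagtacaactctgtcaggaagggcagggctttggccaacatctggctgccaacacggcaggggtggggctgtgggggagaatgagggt
Isg15: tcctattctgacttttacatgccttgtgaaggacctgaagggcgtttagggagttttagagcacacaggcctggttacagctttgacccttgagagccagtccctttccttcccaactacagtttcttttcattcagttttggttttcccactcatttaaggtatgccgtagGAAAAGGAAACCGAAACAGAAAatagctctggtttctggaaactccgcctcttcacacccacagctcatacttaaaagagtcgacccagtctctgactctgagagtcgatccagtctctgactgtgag
Both strands were searched, and the Isg15 window held 3 such repeats that overlap each other. The windows of Irf7, Ifi44 and Oasl1, which are also described by genotype, held 0. The repeat was in a window of 15 of the 25 interferon-response genes that had one (60.0%), and of 1079 of 27025 genes in all (3.99%). CACCTG was in a window of 10 of 17 of the genes that set pDCs apart most (58.8%) and of 6098 of 27025 genes (22.6%). CAGCTG, the other E-box searched, was in 3 of the 17 (17.6%) and in 18.3% of all genes. A match is a description of letters, and binding was not measured.

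Siglece itself gave 4 UMIs in 4 pDCs (1 in KO 1, 2 in WT 2 and 1 in WT 3), and Sall1 gave 0. Neither number can check the genotype labels in pDCs. The mice gave 72, 112, 23 and 100 pDCs (KO 1 to KO 4) and 79, 125 and 30 (WT 1 to WT 3). Summed UMIs ran from 188037 in KO 3 to 812264 in WT 2, and median UMIs per pDC from 4391 in KO 2 to 8756 in KO 1. By Xist and Y-linked transcripts, KO 1, KO 2 and WT 3 were female and the other 4 mice male. Of 460 cell barcodes found in more than 1 library, 18 were on pDCs, and 0 of these had a pDC in the other library too.

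The label pDC fitted the 4 genes that define these cells, Siglech, Ly6c2, Tcf4 and Irf7. All 4 were detected in 397 pDCs (73.4%), 3 in 132 (24.4%) and 2 in 12. By mouse, the share of pDCs with all 4 was 72.2%, 54.5%, 69.6% and 73% in KO 1 to KO 4. It was 86.1%, 81.6% and 83.3% in WT 1 to WT 3. These cells were not thinned, so depth also enters these shares. Median UMIs per pDC were 8756, 4391, 8570 and 5970 in KO 1 to KO 4 and 7217, 6676 and 6215 in WT 1 to WT 3. KO 1 and KO 3 were thus the deepest, yet had lower shares than each WT mouse. The part of depth was not tested. The share with all 4 was 3.22% of cDC1, 0.21% of cells named cDC2 and 0.357% of B cells. Siglech, which encodes Siglec-H, was detected in 99.4% of pDCs after cells were thinned to 3000 UMIs (99.6% before thinning). The same share was 1.19% in T cells, which should lack it and so show the level of free RNA. Thinning kept 514 of 541 pDCs and 1599 of 2000 sampled T cells, whose median depths were 6519 and 4772 UMIs. Ly6c2, a surface antigen shared with monocytes and lymphocytes, separated the classes less well. It was at 3773 ± 979 CPM in pDCs and 1892 ± 2029 in B cells (SD, n = 7 and n = 6), and in WT 2 the B cells held more of it than the pDCs (5497 against 3536 CPM). Irf7 stood at 558 CPM in pDCs and 498 in cDC1.

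The class named cDC2 went against its label. Its 6 mature dendritic cell genes summed to 12552 CPM, with Fscn1 at 5134 and Ccr7 at 3859, whereas 7 cDC2 genes summed to 57.6. The cDC2 genes were more abundant in pDCs, between 456 and 578 CPM over KO mice and 475 and 569 over WT mice, led by Clec10a (250.5) and Sirpa (156). Clec10a, a galactose-binding lectin, was detected in 45.1% of thinned pDCs (60.8% unthinned) and 1.88% of thinned T cells. The class is called "named cDC2" below for this reason.

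**Figure D1:**
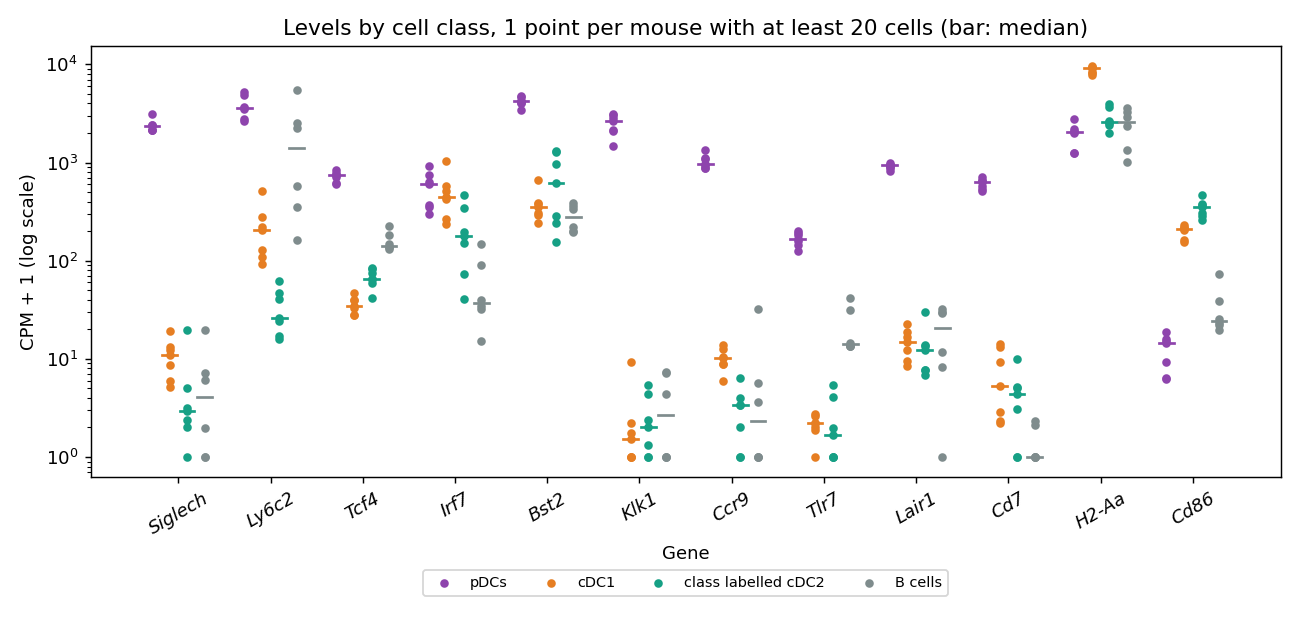
Levels of 12 genes on a log scale (CPM + 1) in pDCs, cDC1, the class named cDC2 and B cells, with 1 point per mouse that has at least 20 cells of the class and a bar at the median. Siglech and Klk1 are high in the pDCs of each mouse (means 2397 and 2477 CPM) and near 0 elsewhere, while Ly6c2 overlaps with B cells and Irf7 with cDC1.

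pDCs were 5.11%, 2.11%, 0.485% and 1.71% of the cells of KO 1 to KO 4 and 2.69%, 2.81% and 0.760% of those of WT 1 to WT 3. KO mice held both the highest and the lowest share, so the groups overlapped. The difference in means was 0.265 percentage points, with an SD over mice of 1.96 points in KO (n = 4) and 1.15 in WT (n = 3). An exact permutation test of this difference over mice, two-sided, gave p = 0.914, where the smallest p the design allows is 0.0286. The difference was -0.653 points without KO 1 and -0.399 without WT 3. Among dendritic cells alone, pDCs made up 13.2% ± 7.56 in KO (SD, n = 4) and 9.40% ± 4.18 in WT (n = 3; exact permutation test, p = 0.543).

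**Figure D2:**
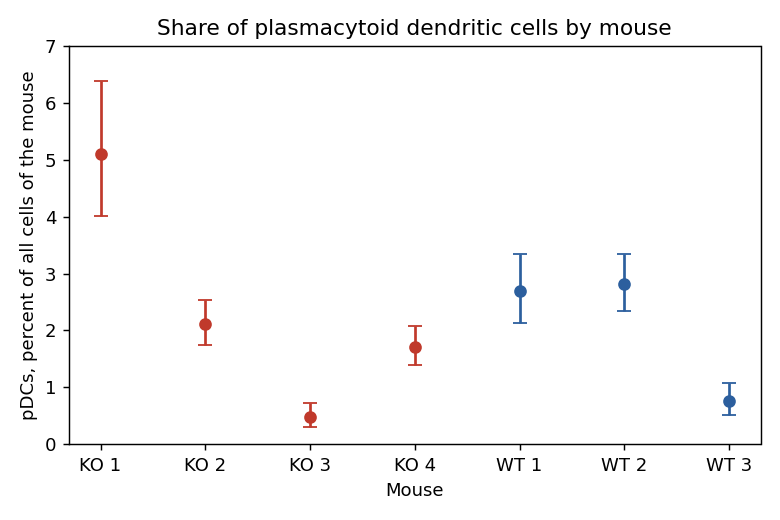
Percent of each mouse's cells that were pDCs, with exact binomial 95% intervals that cover counting error only. KO mice span 0.485% to 5.11% and WT mice 0.760% to 2.81%.

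Against the other 3 classes, Klk1 and Siglech were among the genes that set pDCs apart most. The classes were named from these same transcripts, so levels between classes are a description without a test. Levels in microglia and macrophages were not compared, so these genes may not be particular to pDCs in this tissue. Of 7723 genes at 20 CPM or more in any class, 917 (11.9%) were highest in pDCs in each mouse and 135 (1.75%) were lowest. Klk1, a tissue kallikrein, was at 2477 ± 583 CPM in pDCs (SD, n = 7) and at most 2.66 in another class, a 932-fold difference. Siglech was at 2397 ± 346 CPM, 244-fold above cDC1. Neither rested on 1 mouse, since Klk1 ran from 1489 to 3091 CPM over the mice and Siglech from 2157 to 3132. Klk1 was detected in 85.2% of thinned pDCs (88% unthinned) and 0.688% of thinned T cells. Kallikrein genes are near-copies of each other, so how reads were divided among them is uncertain. Of the Klk1 UMIs in pDCs, 0.312% were in values that are not whole.

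Others among these genes encode secreted or lysosomal proteins. Klk1b27, another kallikrein, was at 409.8 CPM in pDCs and at most 0.375 elsewhere. Ctsl, the lysosomal protease cathepsin L, was at 1874 against at most 28.4. Pltp, which transfers phospholipids between lipoproteins, was at 1425 against at most 13.1. Several others are better known from other tissues. Cox6a2, a respiratory chain subunit of muscle, was at 996 ± 204 CPM, and Atp2a1, the calcium pump of fast muscle, at 159.8 ± 32.7. Cdh5, the cadherin of endothelial junctions, was at 174 ± 50.4 CPM from 571 UMIs in 289 pDCs. Grm8, a glutamate receptor, was at 70.9 ± 13.4 CPM from 236 UMIs in 167 pDCs. After thinning, Cdh5 was detected in 30.9% of pDCs and 0.0625% of T cells, and Grm8 in 17.3% of pDCs. Without thinning the shares were 53.4% of pDCs and 0.0876% of T cells for Cdh5, and 30.9% and 0.0292% for Grm8. Others among the 30 were Smim5, Gm21762, Cd300c, Gm34680, Ccdc162, Dntt, Paqr5, Cd7, Sh3bgr, Lefty1, Ccr9, Nrxn2, D13Ertd608e, Mctp2, Pir, Lair1, Angptl7, Cd209d, Ddr1 and Cd8b1. Values that are not whole held 56.8% of the D13Ertd608e UMIs in pDCs and 11% of those of Gm21762, so their levels are uncertain. For Klk1b27 the share was 0.181%.

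Receptors that tune interferon output were nearly all highest in pDCs, 13 of the 14 at 20 CPM or more (92.9%, against 11.9% of all genes). The list shares Bst2 and Pacsin1, among others, with the pDC markers, so a high share was partly fixed in advance. Bst2, the membrane protein tetherin, was at 4213 CPM against at most 693. Lair1, an inhibitory collagen receptor, was at 913 against at most 17.7. Tyrobp (DAP12), the adaptor through which Siglec-H signals, was at 2987 against at most 588. Lag3, an inhibitory receptor also found on T cells, was at 327 against at most 9.95. The exception was Havcr2 (TIM-3), at 9.67 CPM in pDCs and 219 in cDC1. Of the other Siglec genes, Cd33 was at 105 CPM in pDCs and at most 3.67 elsewhere, whereas Siglecg was at 34.8 in pDCs and 82.6 in B cells.

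Sensors of nucleic acids were present, and type I interferon transcripts were not detected. Tlr7 was at 166 CPM in pDCs, 20.4 in B cells and 1.11 in cDC1, and Tlr9 was at 58 in pDCs and 25.4 in cDC1. After thinning, Tlr7 was detected in 38.7% of pDCs and 0.938% of T cells, and Tlr9 in 17.7% and 0.375%. Both shares in pDCs (59.3% and 28.5% unthinned) lay well above that background. Unc93b1, which carries these receptors to endosomes, was at 981 CPM, Slc15a4, a lysosomal transporter needed for their signal, at 159, and Pld4, an exonuclease that removes their ligands, at 1263. These 3 and Tlr7 were the 4 of 18 sensing genes that were highest in pDCs in each mouse (22.2%, against 11.9% of all genes). No UMI of 18 type I interferon genes was found in 541 pDCs, which allows a share of up to 0.555% of pDCs with a UMI. Ifnl2 and Ifnl3, the lambda interferons, gave 10 UMIs in 6 pDCs, of which 6 UMIs in 2 cells were from WT 1. Values that are not whole held all of the 1 UMI of Ifnl3 and 11.1% of the 9 of Ifnl2. How reads were divided between these genes is therefore uncertain. Ifnar1 and Ifnar2, the chains of the type I interferon receptor, were highest in pDCs, at 307 and 489 CPM.

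Of 12 factors linked to pDCs, 7 were highest there in each mouse (58.3%, against 11.9% of all genes), and of 9 linked to conventional dendritic cells, 0 were. The first list shares Tcf4, Irf7, Spib and Runx2 with the pDC markers, so its share was partly fixed in advance. Tcf4 was at 719 CPM against at most 159, and Spib, another factor that pDCs need, at 218 against at most 56.9. Runx2, which pDCs need to leave the bone marrow, was at 408 against at most 45.5. Irf8 was high in pDCs (2161 CPM) and also in cDC1 (1422). Id2, which blocks TCF4, was at 83.5 CPM in pDCs and 1251 in cDC1, and Batf3, needed for cDC1, at 2.08 and 141. Members of both lists went the other way. Of the pDC-linked factors, Cbfa2t3 was at 62.2 CPM in pDCs and 289 in the class named cDC2, Runx3 at 139.7 and 263, and Mycl was at 58.1 in pDCs and 98.7 in cDC1. Of those linked to conventional dendritic cells, Irf4 was at 53 CPM in pDCs and 16.5 in the class named cDC2, and Batf at 42.7 and 7.69.

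Of 14 lymphoid-linked genes, 7 were highest in pDCs in each mouse (50%, against 11.9% of all genes). Dntt, the terminal transferase of antigen receptor rearrangement, was at 349 ± 41.6 CPM, with 1.17 in B cells, and was detected in 57.2% of thinned pDCs (74.9% unthinned). Ly6d, a lymphoid progenitor antigen that is also among the pDC markers, was at 2358 CPM against 586 in B cells. The recombinase gene Rag1 gave 1 UMI and Rag2 gave 0. Cd4 was detected in 44.6% of thinned pDCs and 24.2% of thinned T cells, and Cd8a in 23.9% and 59.8%. Without thinning the shares in pDCs were 59.7% and 35.5%. Of the 8 B cell markers, Cd79b, a chain of the B cell receptor complex, was at 41.3 CPM in pDCs and made up most of the list's sum. The markers summed to 36.4 to 51.5 CPM over KO mice and 37.2 to 48 over WT mice, against 2583 in B cells, with Ms4a1 at 0. Antibody transcripts outside that list were not scarce. Ighm, the mu heavy chain, was at 521 CPM in pDCs, 564 in B cells and 76.5 in cDC1, and Igkc, the kappa constant chain, at 524 in pDCs, 10848 in B cells and 44.7 in the class named cDC2. After thinning Ighm was detected in 78.4% of pDCs and 10.1% of T cells (90.9% and 14.4% unthinned), and Igkc in 55.8% and 16.1% (67.1% and 24.1%). Cd3e was at 7.80 CPM in pDCs. Monocyte and macrophage markers summed to 210.1 to 878 CPM over KO mice and 467 to 693 over WT mice, with means of 537 in B cells, 508 in cDC1 and 442 in the class named cDC2. Mzb1, a chaperone of antibody-secreting cells, was at 354 CPM in pDCs, 1.57 in cDC1 and 2380 in B cells.

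Genes of MHC class II presentation were mostly at lower levels in pDCs than in cDC1. Of 11, 0 were highest and 0 lowest in pDCs in each mouse. H2-Aa was at 1935 CPM in pDCs, 8804 in cDC1, 2821 in the class named cDC2 and 2407 in B cells. Cd74, the invariant chain, was at 6335, 25272, 6516 and 10680 CPM in the same order. H2-DMa, which helps load peptides, was at 269, 705, 66.7 and 179. By mean level H2-Oa (146 CPM against at most 136) and the protease gene Ctss (685 against at most 653) were highest in pDCs, by less than the SD over mice. Of 12 costimulatory and inhibitory ligands, 4 were lowest in pDCs in each mouse (33.3%, against 1.75% of all genes). Cd80, Cd86, Cd40 and Pdcd1lg2 were these 4, at 1.06, 11.3, 8.47 and 1.53 CPM in pDCs and 20.8, 199.6, 45.7 and 13.5 in cDC1. Cd47, which restrains phagocytes, was the 1 ligand highest in pDCs, at 892 CPM. The 15 genes lowest in pDCs by rank also held Cd83 (32.5 CPM, against 550.3 in cDC1) and Ly75 (4.50 against 73.9), both abundant on mature dendritic cells, and the kinase gene Lrrk2 (1.61 against 71.7).

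Proliferation genes were low in pDCs. The deposited phase calls put 526 of 541 pDCs in G1 (97.2%), with 94.7% of the class named cDC2, 60.1% of cDC1 and 61.5% of B cells, and 7 of 18 proliferation genes were lowest in pDCs in each mouse (38.9%, against 1.75% of all genes). Mki67 was at 8.41 CPM in pDCs and 192 in cDC1. The chemokine gene Ccl4 was highest in pDCs, at 4997, 2375, 1143 and 1484 CPM in KO 1 to KO 4 and 2218, 1453 and 2036 in WT 1 to WT 3. KO mice held its highest and its lowest value. It was detected in 65.2% of thinned pDCs (72.3% unthinned), and in 41.1% of T cells, which also make it. Il12a was at 54.7 CPM in pDCs and at most 10.6 elsewhere, whereas Il12b, which encodes its partner chain, was at 0.997 in pDCs and 787 in the class named cDC2.

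Of 13 homing receptors, 5 were highest in pDCs in each mouse (38.5%, against 11.9% of all genes). Ccr9, a gut and thymus homing receptor that is also among the pDC markers, was at 1029 CPM against at most 9.13. Ccr7, which leads dendritic cells to lymph nodes, was at 45.6 CPM in pDCs. Of 27 genes of the secretory pathway, 0 were highest in pDCs in each mouse, against the same 11.9%. Xbp1, the regulator of secretory capacity, was at 565 CPM in pDCs, 154 in cDC1 and 697 in B cells, a class that also held the plasma cell gene Jchain (6985 CPM).

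Between genotypes, 3 of 6663 genes tested in pDCs passed (0.045%; edgeR quasi-likelihood test, adjusted p under 0.05), 2 with KO lower (0.03%) and 1 with KO higher (0.015%). Without adjustment, p was under 0.05 with KO lower for 223 genes (3.35%) and with KO higher for 205 (3.08%). Each KO mouse lay below each WT mouse for 217 genes (3.26%) and above for 232 (3.48%). The median log2 change over all genes was 0.01.

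Zfp36l2 encodes a protein that binds AU-rich messages and speeds their decay. It was at 845, 697, 558 and 705 CPM in KO 1 to KO 4 and 436, 362 and 419.9 in WT 1 to WT 3. It was higher in each KO mouse than in each WT mouse, with a log2 change of 0.81 ± 0.15 (SE; edgeR adjusted p = 0.0356). Shisa5, a p53 target of the endoplasmic reticulum, was at 142, 134, 128 and 169 CPM in KO and 379, 222 and 283 in WT. It was lower in each KO mouse, by a log2 change of -1.02 ± 0.19 (edgeR adjusted p = 0.0356). Sct, which encodes the hormone secretin, was at 12.9, 7.66, 5.32 and 11.6 CPM in KO and 78, 30.8 and 26.2 in WT, a log2 change of -2.18 ± 0.41 (edgeR adjusted p = 0.0403). Sct rested on 94 UMIs in 39 pDCs, of which 44 UMIs in 16 cells were from WT 1. On GRCm38 the genes lie at chr17:84183931-84187947, chr9:109038565-109057777 and chr7:141278330-141279133, and each is protein-coding.

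Each of the 3 calls ended when certain mice were left out. The direction was kept, with log2 changes of 0.71 to 0.89 for Zfp36l2, -1.22 to -0.77 for Shisa5 and -2.52 to -1.51 for Sct. WT 1 weighed most on Sct and Shisa5, whose log2 changes without it were -1.51 and -0.77. Zfp36l2 was not called without KO 1 (edgeR adjusted p = 0.0774), KO 2 (0.137), WT 1 (0.121), WT 2 (0.0728) or WT 3 (0.0687). Shisa5 was not called without KO 1 (0.0774), KO 2 (0.137), KO 3 (0.114), WT 1 (0.916) or WT 3 (0.0687). Sct kept its call only without WT 2 (0.00226), and its adjusted p was 0.916 without WT 1 and 0.0632 to 0.197 without any other mouse. With sex as a term the edgeR adjusted p were 0.174, 0.174 and 0.426 in the order Zfp36l2, Shisa5 and Sct, with log2 changes of 0.74, -0.99 and -2.01. With DESeq2 Zfp36l2 and Shisa5 were called (adjusted p = 0.018 for both) and Sct was not (0.0612). With the same number of cells per mouse the edgeR adjusted p were 0.282 for Zfp36l2 and 0.113 for Shisa5. With at least 50 cells per library they were 0.0609, 0.247 and 0.13 for Zfp36l2, Shisa5 and Sct.

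In cDC1, Zfp36l2 was at 672, 644, 633 and 519 CPM in KO and 525, 309 and 377 in WT. Its change in pDCs minus that in cDC1 was 0.15 on the log2 scale (edgeR class-by-genotype term, adjusted p = 1), so no difference between these classes was shown. In the class named cDC2 and in B cells the log2 changes of Zfp36l2 were 0.92 and 0.03. Shisa5 in cDC1 was at 166, 187, 190.4 and 171 CPM in KO and 286, 172 and 172 in WT. Its change in pDCs minus that in cDC1 was -0.78 (adjusted p = 0.246). For Shisa5 the log2 changes in the class named cDC2 and in B cells were -0.37 and -0.16. Sct in cDC1 was at 9.19, 3.98, 16.2 and 6.43 CPM in KO and 44.9, 12.4 and 8.11 in WT, with WT 1 the highest mouse there as well (difference of changes -0.66, adjusted p = 1).

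**Figure D3:**
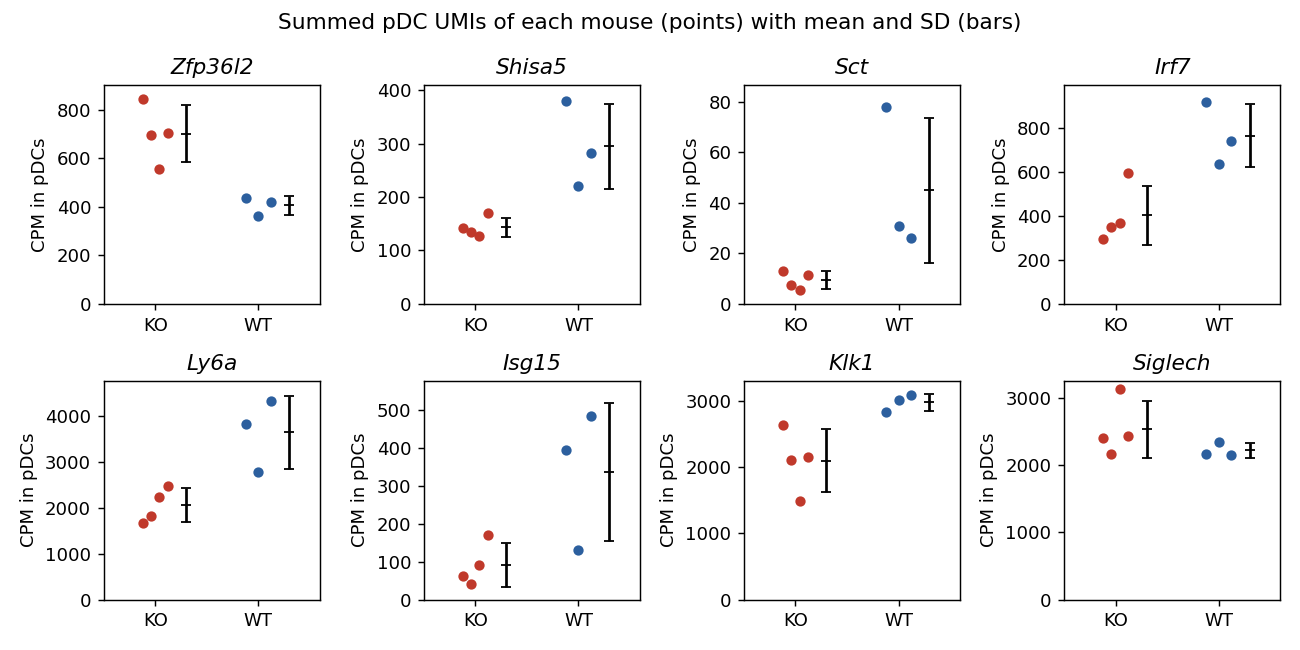
CPM in the pDCs of each mouse for 8 genes, with the mean and SD of each genotype beside the points. Zfp36l2 is higher in each KO mouse (845, 697, 558 and 705 CPM) than in each WT mouse (436, 362 and 419.9), and Shisa5 and Sct are lower.

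Interferon-response genes lay lower in KO pDCs as a list, and 0 passed the adjusted test. The same list lay lower in the other dendritic cells of these mice: 35 of 35 tested genes in cDC1 (median log2 change -0.61) and 29 of 30 in the class named cDC2 (-0.97), with 10 of 13 in B cells (-0.28). Over all genes tested in those classes KO was lower for 49.3%, 48.7% and 50.9%, with medians of 0.0039, 0.0099 and -0.0096. In pDCs 25 of the 35 genes were tested, the other 10 having too few UMIs. KO was lower for 24 and higher for 1, Irf9, where KO was lower for 3230 of all 6663 genes tested in pDCs. The median log2 change was -0.82, against 0.01 for all genes. At an unadjusted p under 0.05 KO was lower for 14 of the 25, against 3.35% of all genes tested. In 4 of 25 each KO mouse lay below each WT mouse, against 3.26% of all genes. In 1 of 25 each KO mouse lay above each WT mouse, against 3.48% of all genes.

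Isg15, a ubiquitin-like antiviral protein, was at 61.4, 40.2, 90.4 and 171 CPM in KO 1 to KO 4 and 394, 132 and 483 in WT 1 to WT 3. KO 4 exceeded WT 2, so the groups overlapped (log2 change -1.81, edgeR unadjusted p = 0.0434, adjusted p = 0.774). Without KO 4 its log2 change was -2.43, and that of Mx1 was -2.04. Ifi44, an interferon-induced antiviral gene, was at 32.3, 21.1, 16 and 34.9 CPM in KO and 144, 38.2 and 105 in WT, without overlap (log2 change -1.68, edgeR adjusted p = 0.606; log2 change -1.04 without WT 1). Irf7, which drives and amplifies the response, was at 297, 350.5, 367 and 598 CPM in KO and 918, 638 and 740.0 in WT. Its groups did not overlap (log2 change -0.92 ± 0.21, edgeR adjusted p = 0.312). Ly6a (Sca-1), a surface antigen that interferon induces, was at 1677, 1829, 2239 and 2472 CPM in KO and 3830, 2773 and 4319 in WT, again without overlap (log2 change -0.83 ± 0.15, edgeR adjusted p = 0.0959). Oasl1 and Mx1 had log2 changes of -1.26 and -1.24, whereas Stat2 was at -0.04.

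The same mice often set the edges of the groups. 17 of the 25 genes had KO 4 as the highest KO mouse, and 20 had WT 2 as the lowest WT mouse. Markers of mature dendritic cells summed to 37.2 to 107 CPM in KO pDCs and 67.7 to 183 in WT pDCs, with 0 of 6 at 0 UMIs, and their part in the result was not tested. For Isg15 the change in pDCs minus that in cDC1 was -0.43, and for Irf7 -0.10 (edgeR class-by-genotype term, adjusted p = 1 and 1).

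**Figure D4:**
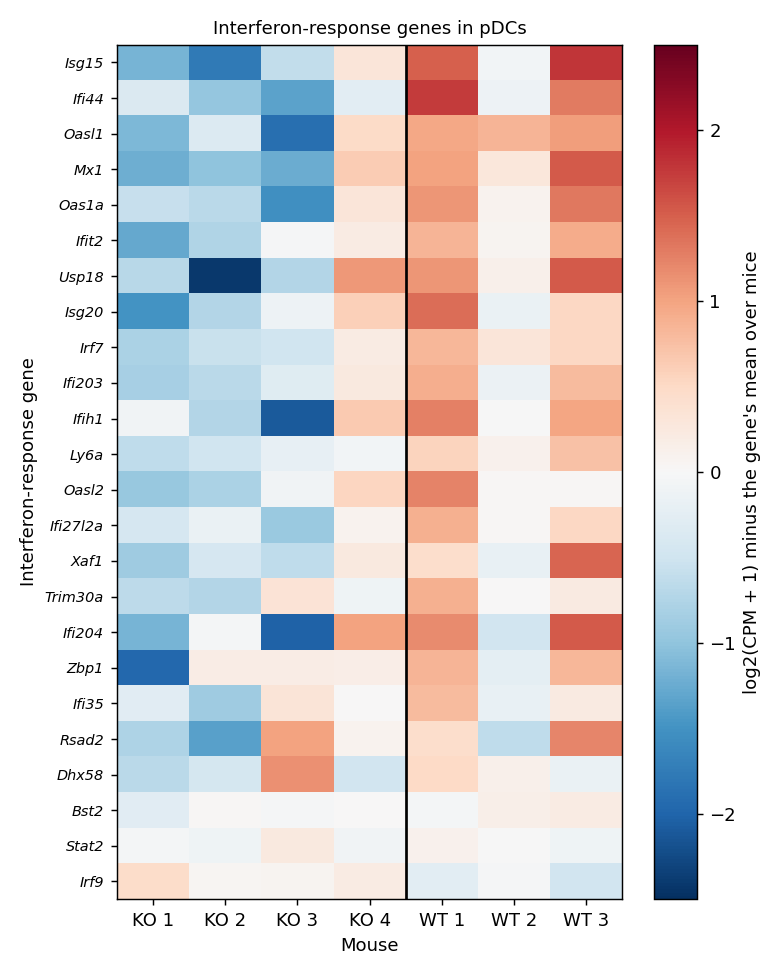
Tested interferon-response genes in pDCs by mouse, 24 of the 25, as log2(CPM + 1) minus the gene's mean over mice, ordered by log2 change. Blue is below and red above the mean; the median log2 change of all 25 is -0.82.

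Summed pDC markers were 18071 to 20270 CPM in KO and 21781 to 23779 in WT, but single markers differed in direction. Of 16 tested, 11 had lower and 5 higher KO levels, with a median log2 change of -0.19. Klk1 was at 2646, 2108, 1489 and 2152 CPM in KO and 2833, 3017 and 3091 in WT, without overlap (log2 change -0.50 ± 0.14, edgeR adjusted p = 0.397). Ly6d was at 2188, 1406, 1845 and 2125 CPM in KO and 3656, 2193 and 3096 in WT, KO 1 lying just under WT 2 (log2 change -0.66, edgeR adjusted p = 0.404). Ly6c2 had a log2 change of -0.52 and Cox6a2 of 0.34 (edgeR adjusted p = 0.361 and 0.774). Siglech, at 2405, 2158, 3132 and 2427 CPM in KO and 2158, 2340 and 2157 in WT, overlapped between genotypes (log2 change 0.18, edgeR adjusted p = 0.928).

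**Figure D5:**
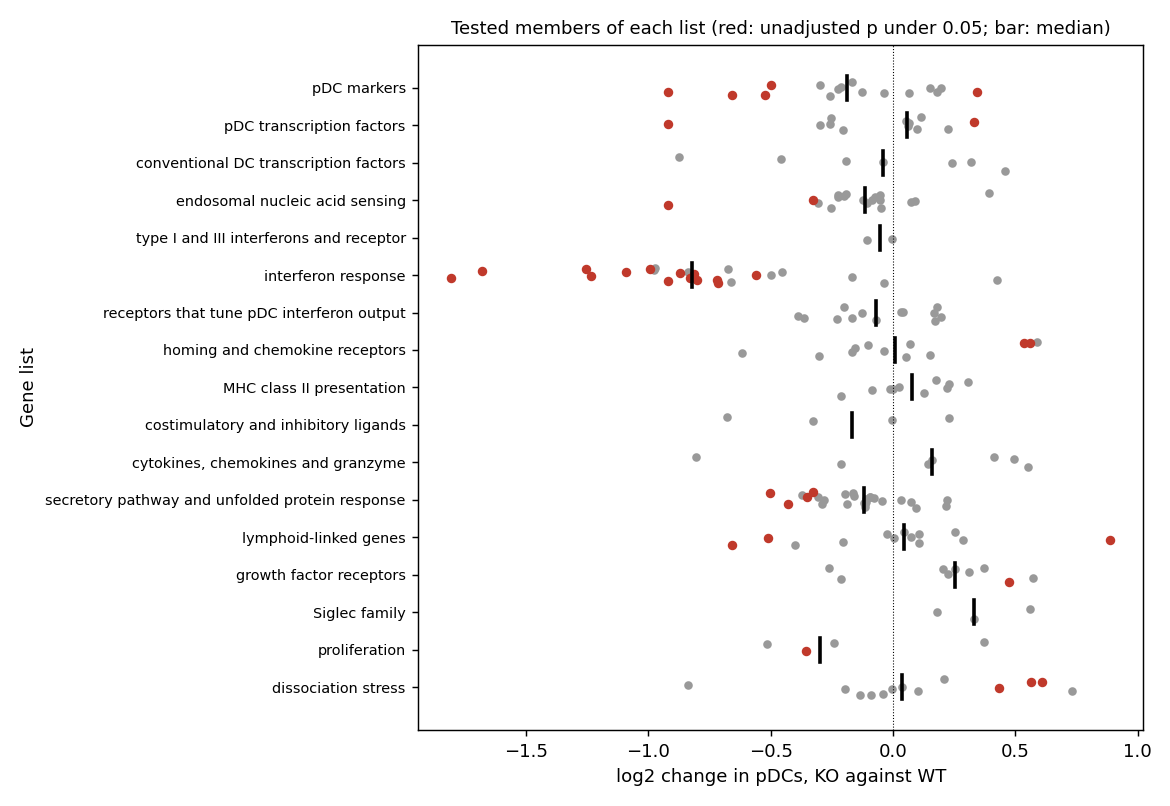
Log2 change, KO against WT, of each tested member of the gene lists in pDCs, with members at an unadjusted p under 0.05 in red and a bar at each median. Of the lists drawn, interferon response has the lowest median, -0.82.

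In the other lists single genes reached an unadjusted p under 0.05 and 0 the adjusted threshold. Of 26 tested genes of the secretory pathway, 21 had lower KO levels, where 3230 of all 6663 genes did, with a median of -0.12. KO was lower at an unadjusted p under 0.05 for 4, against 3.35% of all genes. In the same mice 22 of 26 had lower KO levels in cDC1, 15 of 25 in the class named cDC2 and 21 of 27 in B cells (84.6%, 60% and 77.8%, against 49.3%, 48.7% and 50.9% of all genes tested there). Pdia4, a disulfide isomerase, was at 105, 117, 112 and 94.6 CPM in KO and 137, 145 and 184 in WT, without overlap (log2 change -0.50, edgeR adjusted p = 0.662). Manf, Creld2 and Hsp90b1, also of the endoplasmic reticulum, had log2 changes of -0.35, -0.43 and -0.33. Ccr2, a receptor for monocyte chemokines, was at 71.1, 117, 104 and 103 CPM in KO and 63.8, 70.2 and 63 in WT, higher in each KO mouse (log2 change 0.56, edgeR adjusted p = 0.704). Ptcra, the pre-T-cell receptor alpha chain, was at 24.2, 28.7, 31.9 and 34.9 CPM in KO and 14.2, 17.2 and 15.7 in WT from 82 UMIs (log2 change 0.89, edgeR adjusted p = 0.704). Genes of MHC class II presentation had a median log2 change of 0.08, and of 13 tested receptors that tune interferon output, 7 had lower KO levels and 0 an unadjusted p under 0.05.

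The remaining genes with the lowest p and no overlap did not pass either. KO was higher for Trp53i11, Per1, Ssbp4, Arl5c, Itprip, Fos, Fosb, Smim7 and Cirbp, with log2 changes from 0.56 to 1.25. In cDC1 their log2 changes, in this order, were 0.13, 0.67, 0.21, -0.13, 0.35, 0.09, 0.31, 0.03 and 1.39. In the class named cDC2 those from Per1 on were 0.56, 0.96, -0.66, 0.17, 0.02, 0.32, -0.47 and 0.99. Fos, an immediate early gene that dissociation can induce, was at 1249, 1674, 1372 and 1477 CPM in KO and 746, 1173 and 1008 in WT. Of 13 dissociation genes, 3 had an unadjusted p under 0.05 (Fos, Fosb and Zfp36, each higher in KO), against 3.08% of all genes, while Jun had a log2 change of 0.04; their part in other results was not tested. KO was lower for Apod, Rgcc, Gm42047, Kdr, Cotl1 and Hspe1, with log2 changes from -2.11 to -0.54. In cDC1 the changes of these genes, in this order, were -0.46, -0.80, -0.85, -1.40, -0.06 and -0.36. In the class named cDC2 those of Kdr, Cotl1 and Hspe1 were -1.74, 0.11 and -0.13. Apod, an apolipoprotein, rested on 104 UMIs in 50 pDCs. Ssbp4, Smim7, Gm42047 and Cotl1 lie on chromosome 8, as does Sall1, the gene of the driver, and the other genes of this paragraph do not. Only KO mice carried the driver, and the part of strain differences linked to it was not tested.

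Whether the genotype difference in pDCs differed from that in another class was tested by a class-by-genotype term in edgeR. Against cDC1 0 of 9349 genes passed (0%; 410 at an unadjusted p under 0.05), and against the class named cDC2 0 of 8299 (0%; 459). DESeq2 was not run for this term. Against B cells 3 of 7281 passed (0.0412%), in a fit of 6 mice because KO 1 had 8 B cells, and 0 passed with unpaired libraries or with at least 10 UMIs in every library of a group. All 3, Igkv3-2, Igkv4-55 and Igkv8-24, are variable genes of the antibody kappa chain. Igkv3-2 gave 28 UMIs in pDCs of KO 4 and 13 in those of WT 2, against 27162 in the B cells of WT 2. The 3 genes depended on B cell libraries to enter the fit, so they show no genotype change in pDCs.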

How the data were processed

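The study holds 7 libraries of 10x 5′ single-cell RNA, 1 per mouse. The authors deposited unscaled expected counts of UMIs, some of them fractional, for each gene in each cell, with a table of cell names, phases and types. The table's percent of mitochondrial UMIs per cell is as deposited by the authors, and its map positions, a score deposited by the authors, were not used. STARsolo, STAR 2.7.10a, FastQC 0.11.5 and the build mm10 are named per the submitters' processing notes. Cell filters, doublet handling and the naming method are not given in the sources used here. Of the UMIs in pDCs, 5.83% belong to values that are not whole (tolerance 0.01), and genes that share reads are uncertain.

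UMIs were summed per class and mouse (at least 20 cells) and rounded, then tested with edgeR 4.0.16 in R 4.3.3 (TMM scaling, filterByExpr, robust quasi-likelihood test, Benjamini-Hochberg adjustment over all genes tested). An SE is the log2 change divided by the root of F. The class-by-genotype fit had a term per mouse. The fits were tested on simulated data. Shares were compared by exact permutation (scipy 1.17.1). Intervals and the limit that a count of 0 allows (3 counts) cover counting error only. Gene positions are from GENCODE M21, in which 95.8% of gene rows were found. Replicate numbers are the labels'. Alternatives were DESeq2 1.42.0, other scaling, filters and rounding, a replicate block, sex, equal cell numbers, possible doublets and leaving out each mouse.

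The members and lists were chosen with earlier results of these data known. Genes named are those called, the 10 per direction with the lowest p and no overlap, pDC markers, up to 4 members per list by change and by level, Siglec genes, the 30 highest and 15 lowest pDC genes by the lowest log2(CPM + 1) ratio over mice, and genes called in class-by-genotype fits. Some genes are not reported here. Other genes named were chosen after their values were seen.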

Additional observations from a re-analysis of the deposited data

Results flagged for a closer look

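Of 60 results tested for a KO mouse that stood apart from the other 3, 2 did so, where chance gives about 1 in 20. Mx1, an antiviral GTPase, was at 16.2, 19.2, 16 and 61.4 CPM in pDCs of KO 1 to KO 4, with KO 4 (61.4) far above the others. Ccr9, the homing receptor, was at 1348, 956, 883 and 883 CPM, with KO 1 (1348) apart.

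Against B cells the class-by-genotype term was called for 3 antibody kappa chain genes (edgeR, 6 mice). It was called for 0 genes with unpaired libraries or with at least 10 UMIs in every library of a group. Most pDC libraries held 0 UMIs of these 3 genes, which depended on B cell libraries to enter the fit. The fitted differences therefore depend on the prior count, and their sizes are not measured folds. No genotype change in pDCs was shown by them. The fitted change in pDCs minus that in B cells was 5.81 on the log2 scale for Igkv3-2 (adjusted p = 0.00653), 8.49 for Igkv4-55 (0.0158) and 9.99 for Igkv8-24 (0.0352). B cells of WT 2 held 27162, 53077 and 2968 UMIs of them and B cells of KO 4 694, 9 and 53. In pDCs, Igkv4-55 gave 1 UMI in KO 2, 5 in KO 4 and 27 in WT 2, and Igkv8-24 gave 7 in KO 4.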

How the results depend on the processing

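The count of genes called in pDCs, 3, was 6 with DESeq2 (Sct not among them), 38 with no filter on low counts, 5 without genes whose values are not whole, 0 with sex as a term, 0 with 23 cells per mouse and 1, none of the 3, with at least 50 cells per library. It was 5 with possible doublets left out, an alternative chosen after seeing the data. That alternative marked 61 of 541 pDCs, a higher share in each KO mouse than in each WT mouse. It marked 9 of 72, 16 of 112, 3 of 23 and 16 of 100 in KO 1 to KO 4. In WT 1 to WT 3 it marked 6 of 79, 8 of 125 and 3 of 30. The planned version marked 508 of 541 pDCs and could not be fitted. Leaving out 1 mouse gave 0 to 12 (0 without KO 1, KO 2 or WT 3, 1, again none of the 3, without WT 1, 10 without KO 4, 12 without WT 2). With the replicate block the count was 39. Deviations of mice of the same number correlated little in pDCs (r = 0.03, 0.05 and -0.04 for numbers 1 to 3). KO 1 and KO 2 correlated best with the WT mouse of their own number, and KO 3 with WT 2. The labels do not say that a number pairs mice, and correlations over so few mice cannot settle it. Class-by-genotype counts with 1 mouse left out were 0 to 3 against cDC1, 0 to 1 against cDC2 and 3 to 8 against B cells; the last was 0 with at least 10 UMIs in every library of a group and 0 with unpaired libraries. The share difference ran from -0.653 to 0.888 points with 1 mouse left out. The sign turned for Ccr9 (0.014 with the replicate block, 0.060 with equal cells, -0.21 to 0.033 with 1 mouse left out), Runx2 (-0.15 with equal cells, -0.17 with at least 50 cells, -0.078 to 0.29), Tlr9 (0.014 with sex, -0.43 to 0.24) and Ptprs (-0.38 to 0.060). The log2 ratio of Ly6c2 to the highest other class was -0.11 with mice pooled, -0.010 thinned and -0.17 with possible doublets left out. The cause of these shifts was not tested. The 23 pDCs of KO 3 and 30 of WT 3 limit precision.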

Other observations

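Some genes differed widely between mice of 1 genotype in pDCs. They were taken, after their values were seen, from the 10 with the largest SD over mice of log2(CPM + 5) among tested genes with at least 300 UMIs. Apobec3, which restricts retroviruses, was at 418, 368, 26.6 and 173 CPM in KO 1 to KO 4 and 280.1, 418 and 7.87 in WT 1 to WT 3. KO 3 and WT 3 were lowest, as they were in cDC1 (46.2 and 49.7 CPM). Rpl34-ps1, a ribosomal pseudogene, was at 286, 308, 348 and 9.16 CPM in KO and 2.07, 339 and 8.75 in WT. KO 4, WT 1 and WT 3 were low in cDC1 too (3.28, 3.22 and 5.47 CPM), but 90.4% of its UMIs were in values that are not whole, so its level is uncertain. Rps3a2, a ribosomal protein gene copy, was at 394, 408, 552 and 24.5 CPM in KO and 16.3, 11.1 and 35.5 in WT (log2 change 4.30, edgeR unadjusted p = 0.0208, adjusted p = 0.704). It was high in 3 of 4 KO mice, and in the same 3 in cDC1 (516, 679 and 569.8 CPM). Its level is also uncertain, since non-integer values held 92.7% of its total. Ctse, an aspartic protease, was at 149, 109, 165 and 179 CPM in KO and 19.5, 99.7 and 205 in WT, with WT 1 lowest.

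Irf7 and Sct lie 11.8 kb apart on chromosome 7, and both were lower in pDCs of each KO mouse. The tested genes around them, Hras, Phrf1 and Tmem80, overlapped between genotypes (log2 changes 0.20, 0.48 and -0.56). Of 6 tested Ly6 genes, Ly6a, Ly6d and Ly6e were lower in each KO mouse (log2 changes -0.83, -0.66 and -0.26), against 3.26% of all genes, and Ly6c2, Ly6k and Ly6g5b overlapped. None of these besides Sct passed the adjusted edgeR test.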
